A study of Rattus norvegicus with 8 samples.

Results

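Aaas, Eif5 and Tbc1d10b are genes with housekeeping roles whose promoter regions were listed as hypermethylated in rat urinary bladder carcinomas (UCs) induced by dimethylarsinic acid (DMA), an organic arsenical. Their 3 regions are 3 of the 246 regions in the list. The regions were chosen by the same contrast that is described here, UC against control, with all 5 UCs to lie above all 3 controls, so their differences are given as a description without a test. Each region was examined with every CpG up to 1000 bp on either side. The questions were how many CpGs gained methylation, and whether they lay in an unmethylated promoter core or at an edge beside DNA that was already methylated in control bladder.

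DNA methylation was measured by reduced representation bisulfite sequencing (RRBS), in which DNA is cut at CCGG (MspI) and TCGA (TaqI) sites, treated with bisulfite and sequenced, so that unmethylated cytosines read as T. The level of a CpG is the share of its reads that kept a C. All animals were F344/DuCrj rats, 10 weeks old at the start, in a study of 104 weeks. Their drinking water held 0 ppm DMA (control 1 to 3, n = 3) or 200 ppm DMA (UC 1 to 5, n = 5, labelled as bladder tumours BT1 to BT5). The study also killed rats that became moribund, so single exposures may have been shorter. The tumours were not examined by histology, and the study took them as UCs from their macroscopic size. The labels give the control tissue as urothelium, whereas the study's methods speak of bladder tissue, and methylation calls alone do not show which cells were present. Nothing in the sources used here ties the 5 UCs to separate animals, so p-values measure the spread between these samples.

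In mammals, most promoters of genes used by many cell types lie in CpG islands, stretches rich in CpGs that are normally free of methylation, flanked by shores where methylation rises. Dense methylation of an island is associated with silencing, whereas methylation of a shore or a gene body need not be. Aaas encodes aladin, a protein of the nuclear pore complex. Eif5 encodes a translation initiation factor that promotes GTP hydrolysis by eIF2 on the scanning ribosome. Tbc1d10b encodes a TBC-domain protein that stimulates GTP hydrolysis by Rab proteins, the switches of vesicle traffic. RNA was not measured in these files, so how broadly the 3 genes are expressed was not checked here. The study did run expression arrays on the UCs. Its list of genes both hypermethylated and downregulated in the UCs does not hold Aaas, Eif5 or Tbc1d10b.

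Both of the following properties of the libraries bear on every comparison. UC 3 was the lowest of the 5 UCs in 128 of the 202 listed regions that were covered in all samples. UC 4 and UC 5 had 2.03% and 2.07% of their calls on chromosome X, against 1.09% to 1.26% in the other 6 libraries, and 0.00389% and 0.00380% on chromosome Y, against 0.0203% to 0.0243%. CpGs of chromosome X that were unmethylated in controls averaged 30.8% and 28.6% in these libraries, against 1.54% to 2.75% in UC 1 to UC 3. The study describes its animals as male, and these 2 libraries differed from the other 6 on both sex chromosomes. The 3 genes lie on autosomes, and their values are given below with and without UC 3 and with and without UC 4 and UC 5. The libraries held 51434938 to 73836223 CpG calls.

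The bases around each gene start show how differently the CpGs with higher UC means were placed. Each sequence is RefSeq's GRCr8 promoter from 250 bases before the start to 30 bases after it, read 5′ to 3′ in the direction of the gene. Capitals mark CpGs that were at least 3 reads deep in all samples and whose UC mean exceeded the control mean by over 10 points, called raised from here on.
Aaas: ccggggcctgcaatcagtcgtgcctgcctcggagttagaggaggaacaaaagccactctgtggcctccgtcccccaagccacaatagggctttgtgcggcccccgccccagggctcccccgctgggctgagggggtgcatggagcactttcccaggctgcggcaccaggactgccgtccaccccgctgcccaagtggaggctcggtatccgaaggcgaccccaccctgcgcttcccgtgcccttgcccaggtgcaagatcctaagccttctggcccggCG
Eif5: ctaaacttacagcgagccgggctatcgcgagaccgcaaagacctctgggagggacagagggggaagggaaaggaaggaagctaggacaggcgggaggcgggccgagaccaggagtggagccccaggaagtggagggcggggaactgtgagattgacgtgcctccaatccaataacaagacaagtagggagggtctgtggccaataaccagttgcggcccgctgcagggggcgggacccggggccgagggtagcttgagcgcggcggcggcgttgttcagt
Tbc1d10b: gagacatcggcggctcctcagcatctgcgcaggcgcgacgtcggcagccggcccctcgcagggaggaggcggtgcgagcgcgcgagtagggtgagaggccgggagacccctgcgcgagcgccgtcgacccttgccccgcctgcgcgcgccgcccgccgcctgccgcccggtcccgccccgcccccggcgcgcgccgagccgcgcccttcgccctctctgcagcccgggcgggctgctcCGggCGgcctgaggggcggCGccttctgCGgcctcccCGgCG
The Aaas stretch (chromosome 7, 135362516 to 135362795, minus strand) is shown because it separates the listed region, which ends 288 bp before the start, from the start itself. Of its 17 CpGs 3 were measured in all samples, and 1, close to its 3′ end, was raised. The Eif5 stretch (chromosome 6, 136410083 to 136410362, plus strand) holds 20 CpGs, of which 12 were measured and 0 were raised. The Tbc1d10b stretch (chromosome 1, 191257099 to 191257378, minus strand) holds 48 CpGs, of which 41 were measured, and all 6 raised ones stand at its 3′ end, around the start, with 1 CpG among them that was raised by less.

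Over the full 300 bases of each entry, Aaas had 20 CpGs, Eif5 21 and Tbc1d10b 49, against a median of 7.0 in the 33469 rat promoters of the table. As many CpGs or more as in Tbc1d10b were found in 0.866% of promoters, whereas 24.2% had as many as Aaas and 22.6% as many as Eif5. The GC box letters GGGCGG were found on either strand 8 times in Tbc1d10b, 2 times in Eif5 and 1 time in Aaas, and 33.1% of promoters hold them. The CCAAT letters, on either strand, occurred 3 times in Eif5 and 0 times in Aaas and Tbc1d10b, and 37.5% of promoters hold them. MspI sites (CCGG), at which RRBS fragments begin, occurred 7 times in Tbc1d10b and 2 times each in Aaas and Eif5, and are in 51.4% of promoters. The TaqI site TCGA occurred 1 time, in Tbc1d10b, and is in 23.0% of promoters. The starts were placed in rn6, the build of the files, by matching the spacing of CpGs in these sequences with that of the measured CpGs. Aaas matched at 13 of 13 listed CpGs, Eif5 at 16 of 16 and Tbc1d10b at 46 of 46.

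The Aaas region had the highest methylation of the 3 in the UCs. It spans 77 bp with 7 CpGs (rn6 chr7:143956956-143957032), 288 to 364 bp before the start of Aaas, on the side of its neighbour Sp7. Its level was 9.72%, 8.71% and 7.0% in control 1 to 3. In UC 1 to 5 it was 89.1%, 90.5%, 38.9%, 68.8% and 68.9%. Every UC lay above every control, UC 1 and UC 2 were highest, and UC 3 was lowest but still far from the controls. The means were 8.48% ± 1.37 (SD, n = 3) and 71.2% ± 20.9 (SD, n = 5), a difference of 62.8 points. The difference was 70.8 points without UC 3 and 64.4 points without UC 4 and UC 5. Between 247 and 539 calls stood behind each level, and the Wilson 95% interval of the lowest UC ran from 33.5% to 44.7%. Such an interval treats each call as independent, but neighbouring CpGs share reads, so it is too narrow.

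The Eif5 region had the smallest difference of the 3. It spans 132 bp with 17 CpGs (rn6 chr6:136003007-136003138) and contains the gene start, from 13 bp before it to 118 bp after it. The controls stood at 0.556%, 1.01% and 0.763%. The UCs stood at 10.5%, 9.42%, 5.28%, 16.5% and 12%. The groups did not overlap, and UC 3 was again the lowest UC, with a Wilson 95% interval of 3.40% to 8.10%. The means were 0.775% ± 0.225 (SD, n = 3) and 10.7% ± 4.07 (SD, n = 5), 9.97 points apart. The gap was 11.3 points without UC 3 and 7.63 points without UC 4 and UC 5. The list was cut at a difference of over 10 points, and by the summing of calls used here Eif5 lies at that limit, between the regions of Fbxl7 (9.93 points) and Nfasc (10.2 points).

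The Tbc1d10b region is short, 37 bp with 5 CpGs (rn6 chr1:198652648-198652684), from 10 bp before the start to 26 bp after it. In control 1 to 3 it was at 1.35%, 2.90% and 0.864%. In UC 1, 2, 4 and 5 it was at 19.1%, 20.3%, 15.3% and 12.9%, whereas UC 3 was at 1.46%, within the range of the controls. So 4 of 5 UCs were above every control, and the groups overlapped through UC 3. The means were 1.70% ± 1.06 (SD, n = 3) and 13.8% ± 7.52 (SD, n = 5), 12.1 points apart. Without UC 3 the UC mean was 16.9% ± 3.43 (SD, n = 4) and the difference 15.2 points, and without UC 4 and UC 5 it was 11.9 points. Intervals and floors here cover counting error only, with each call treated as independent, so they are too narrow where CpGs share reads.

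**Figure D1:**
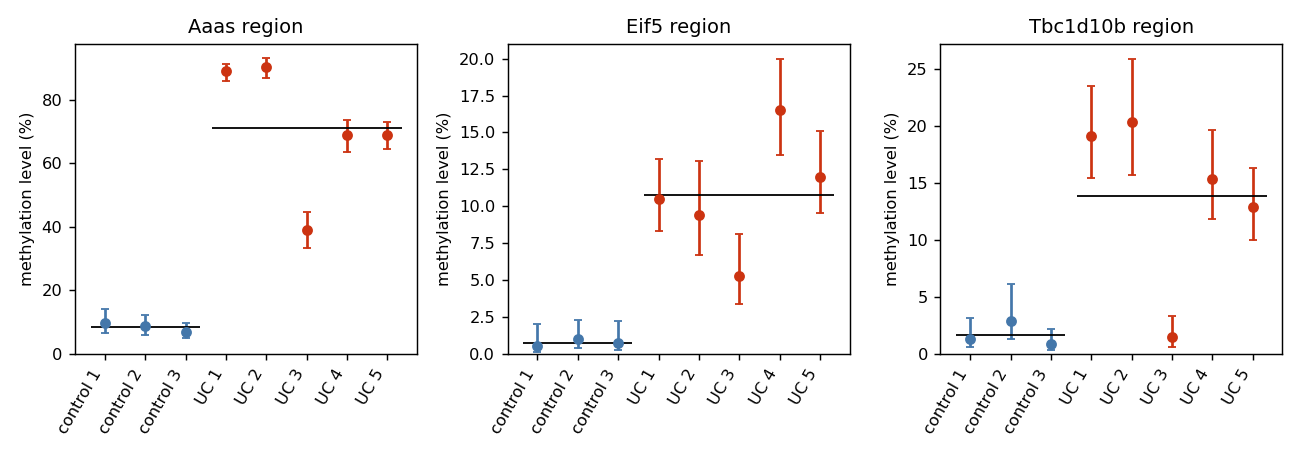
Methylation level (%) of the 3 listed regions in each sample, on a separate axis for each gene. Points are samples (blue, 3 controls; red, 5 UCs), bars are Wilson 95% intervals and black lines are group means; all 5 UCs lie above the controls for Aaas and Eif5, and UC 3 lies among the controls for Tbc1d10b at 1.46%.

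Among the 202 listed regions covered in all samples, whose median difference was 17.6 points, Aaas ranked 3 from the largest, Tbc1d10b 170 and Eif5 198. Of 7 other listed regions of widely used genes (Tuba1b, Polg, Ctsz, Fundc2, Ubqln2, Foxred2 and Usp13), 5 were covered in all samples. Their median difference was 14.7 points, from 13.8 points in Ctsz, a lysosomal protease gene, to 39.7 points in Fundc2, a gene of a mitochondrial outer membrane protein. All 5 had every UC above every control, as did 188 of the 202 covered regions (93.1%); Tbc1d10b was among the other 14.

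At Aaas, raised CpGs filled the DNA upstream of the start and thinned out toward it. Of the 64 CpGs of the window listed in all samples, 20 were raised and 17 also had every UC above every control, which is called gained from here on, including all 7 of the region. The gained CpGs were 26.6%, against 6.89% of the 2052737 CpGs listed in all samples and 2.27% of those with every control at most 10%; the window was chosen for such a gain, so nothing is read from the excess. The CpG with the largest difference in the region, 319 bp before the start, was at 13.9%, 8.51% and 11.4% in the controls and at 90.2%, 94.0%, 41.9%, 93.6% and 89.6% in the UCs. The one with the smallest, 288 bp before the start and nearest to it, rose from a mean of 5.13% ± 1.69 (SD, n = 3) to 56.1% ± 33.1 (SD, n = 5). At that CpG UC 1 and UC 2 were at 83.7% and 90.2%, UC 4 and UC 5 at 51.2% and 48.1%, and UC 3 at 7.41%. The next CpGs toward the gene, 259 and 248 bp before the start, averaged 26.0% and 7.20% in the UCs.

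On its outer side the Aaas gain ran into DNA with more methylation in controls. The 8 CpGs upstream of the region stood at 15.4%, 16.9% and 11.6% in the controls and at 71.6%, 74.8%, 39.6%, 72.8% and 71.2% in the UCs. The CpG with the largest difference outside the region, 440 bp before the start, averaged 18.8% ± 7.68 (SD, n = 3) in controls and 82.8% ± 8.97 (SD, n = 5) in UCs. The nearest CpG with a control mean of at least 50% lay 600 bp before the start, 236 bp from the region. It was at 83.3%, 77.8% and 80.0% in the controls and averaged 95.5% in the UCs. Only 7 to 12 reads covered that CpG, and when 10 reads were required in all samples the nearest such CpG was 3859 bp away. The next one on the gene's side was 17464 bp away. A CpG still farther out, 656 bp before the start, was low in controls (mean 6.48%) and averaged 44.9% in UCs on as few as 7 reads, so the control level fell again beyond the highly methylated CpG.

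A weaker rise was also seen just inside Aaas. Between 29 and 67 bp after the start, 4 of the 6 CpGs measured within the first 70 bp differed by over 10 points. The CpG 45 bp after the start was at 1.79%, 3.92% and 3.03% in controls and at 15.7%, 11.5%, 0%, 57.8% and 40.3% in the UCs. UC 4 and UC 5 were highest at this CpG, and UC 3 lay below the controls. At 29 bp, where the difference was 21.7 points, UC 1 and UC 2 were highest instead, at 35.6% and 38.8%, with UC 4 at 25.6%, UC 5 at 16.1% and UC 3 at 1.96%, within the range of the controls. From 88 bp to 626 bp after the start, 41 CpGs averaged 0.443% in controls and 1.26% in UCs. No CpG between 248 bp before and 26 bp after the start was listed in all samples, so the start itself was not compared over all samples. Whether the rise inside Aaas is separate from the one upstream was therefore not shown.

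Eif5 had no such neighbour. All but 3 of the 126 CpGs of its window listed in all samples were at most 10% in every control, 0 had a control mean of 50% or more, and the nearest such CpGs were 6562 bp before the region and 14832 bp after it. The first 8 CpGs of the region ran from 13 bp before to 35 bp after the start. They were unmethylated in both groups, at 0 of 550 calls in the controls and 1 of 878 in the UCs. With pooled calls counted as independent, 0 of 550 allows a level of up to 0.545%, but neighbouring CpGs share reads. The next 9 CpGs, from 58 to 116 bp after the start, averaged 1.39% ± 0.448 (SD, n = 3) in controls. In UC 1 to 5 they stood at 16.2%, 15.7%, 7.31%, 26.4% and 22.2%, a mean of 17.6% ± 7.26 (SD, n = 5). Where to divide the region was chosen after its values were seen. The step between neighbours was abrupt: the CpG at 35 bp was at 0% in every sample, and the CpG at 58 bp, which had the largest difference in the region, averaged 3.89% in controls and stood at 27.3%, 23.8%, 17.2%, 45.7% and 48.4% in the UCs. The CpG at 35 bp had 12 to 30 reads and that at 58 bp 21 to 44, so the reads behind them were not all the same.

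The Eif5 gain did not stop at the end of the listed region. Raised CpGs ran to 265 bp after the start, 12 in all. Of the window's CpGs 7 (5.56%) were gained, a share below the 6.89% of all CpGs and above the 2.27% of CpGs with every control at most 10%, from which nothing is read. Between the raised CpGs stood others, at 160, 168 and 258 bp, at 0% in every sample. The largest difference outside the region was at 201 bp, where UC 1 was at 44.4% and UC 4 at 31.2%, but UC 2, UC 5 and UC 3 were at 7.14%, 11.1% and 0%, the controls at 4.0%, 5.56% and 0%. From 268 to 1042 bp after the start, 65 CpGs averaged 0.478% in controls and 0.659% in UCs, and the 33 CpGs from 572 bp before to 35 bp after the start averaged 0.355% and 0.260%. The promoter of LOC120103627, a gene annotated on the opposite strand, was placed after the Eif5 start and inside this window (rn6 chr6:136003787-136004086). It was at 0.809% in controls and 0.765% in UCs, and it shares CpGs with the 65 above, so it is not a separate measurement.

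Tbc1d10b showed a slope across the first part of the gene. In the controls, 100-bp bins rose from 1.19% over the first 100 bp after the start to 11.5% at 300 to 399 bp, 27.5% at 500 to 599 bp and 47.9% at 700 to 799 bp. In the UCs the same bins averaged 10.1%, 32.1%, 42.6% and 52.0%, so that the difference was 8.94, 20.6, 15 and 4.08 points. The nearest CpG at 50% or more in controls lay 752 bp after the start, 726 bp from the region, with 51.9% in controls and 51.7% in UCs. This value rests on the limit chosen: at a limit of 70% the nearest was 4300 bp away. On the other side of the start, toward Myl11, the nearest such CpG was 5211 bp away and averaged 58.3% in controls and 5.0% in UCs.

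The listed Tbc1d10b region sat at the near end of this slope. The raised CpGs began 11 bp before the start, at 15.5% in UCs against 1.33% in controls, and the first gained one was 17 bp after it, because UC 3 lay among the controls at those before. The CpG 25 bp before the start was at 0% in every UC. From 266 to 25 bp before the start, 38 CpGs averaged 0.284% in controls and 0.402% in UCs. The CpG with the largest difference in the region, 17 bp after the start, was at 0%, 0% and 1.08% in controls and at 21.5%, 23.9%, 1.43%, 20% and 9.30% in the UCs. The smallest, 5 bp after the start, differed by 7.84 points. Outside the region the largest difference was 36.3 points, 335 bp after the start, where the UCs stood at 50%, 44.1%, 28.0%, 33.3% and 45.7% and the controls at 8.89%, 3.03% and 0%. Over the 51 CpGs downstream of the region, controls were at 10.8%, 9.10% and 8.66% and UCs at 29.2%, 29.3%, 11.6%, 20.1% and 21.4%. All 5 UCs were above the controls there, UC 3 by less than 1 point over the highest control.

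**Figure D2:**
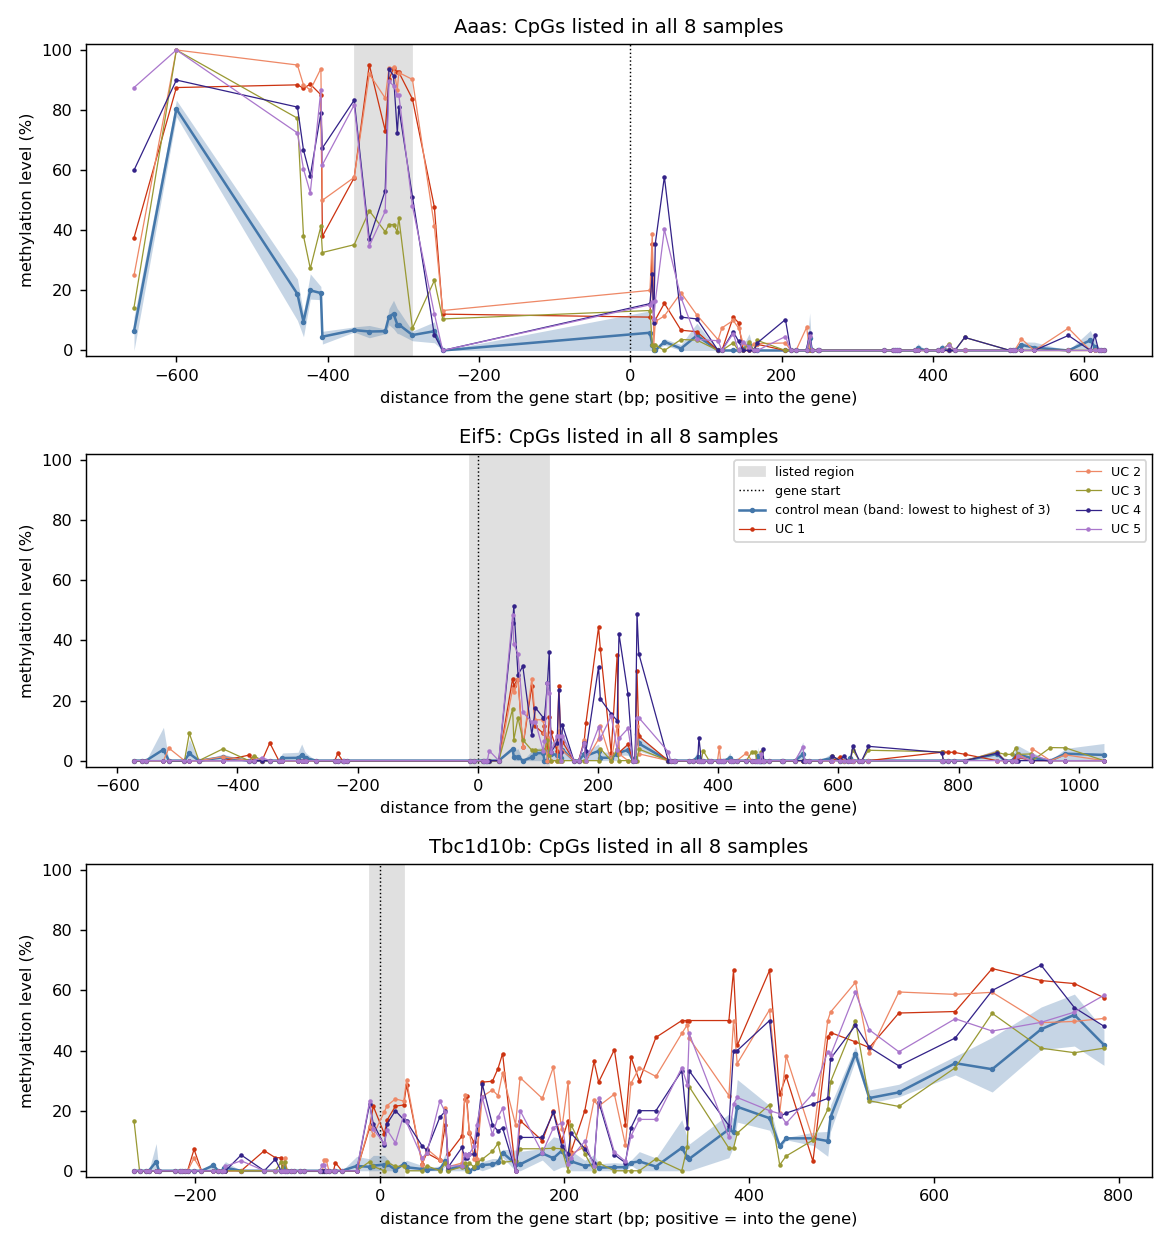
Methylation level (%) of every CpG listed in all 8 samples against its distance from the gene start in bp, with positive values inside the gene. Blue is the control mean with a band from the lowest to the highest control, the other lines are the 5 UCs and grey marks the listed region; the UC gain lies mainly before the start at Aaas, with a weaker rise 29 to 67 bp after it, between 58 and 265 bp after it at Eif5, and along a slope that rises into the gene at Tbc1d10b.

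A CpG was counted as edge when it lay within 200 bp of a CpG at 50% or more in controls, and as core when it was farther away and at most 10% in every control. Among all CpGs with every control at most 10%, 2.27% were gained, and the shares here are again a description. At Aaas, 6 of 6 edge CpGs and 6 of 51 core CpGs were gained, with 4 of 6 CpGs of intermediate control level and the 1 methylated CpG itself. The edge at Aaas rests on that 1 CpG of 7 to 12 reads; with 10 reads required in all samples, no CpG of the window was an edge CpG. At Eif5 there were no edge CpGs, and 7 of 123 core CpGs were gained. At Tbc1d10b, 1 of 5 edge CpGs, 7 of 75 core CpGs and 3 of 14 intermediate ones were gained. Of the gained CpGs, 10 at Aaas, 7 at Eif5 and 10 at Tbc1d10b were thus over 200 bp from a CpG methylated in controls. With a limit of 300 bp the counts were 3, 7 and 7, and with the edge taken from CpGs at 30% or more in controls they were 10, 7 and 6, both chosen after seeing the data. The count at Aaas thus fell by over 1.5 times under the first and that at Tbc1d10b under the second.

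The count of gained CpGs depended on UC 3. Without it, 11 CpGs were gained at Eif5 in place of 7, and 36 at Tbc1d10b in place of 11. In windows of 200 bp tested across the genome with a quasi-binomial model and Benjamini-Hochberg adjustment, 9.84% of 258144 tiles were called higher in UC, and 4.66% of the 60208 tiles with every control at most 10%. The tiles over Aaas were called higher in 3 of 6 cases, those over Tbc1d10b in 2 of 6 and those over Eif5 in 0 of 7. No tile in these windows was called lower. The median difference over all tiles was 0.341 points. These windows were chosen on the same contrast, so the calls are a description.

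**Figure D3:**
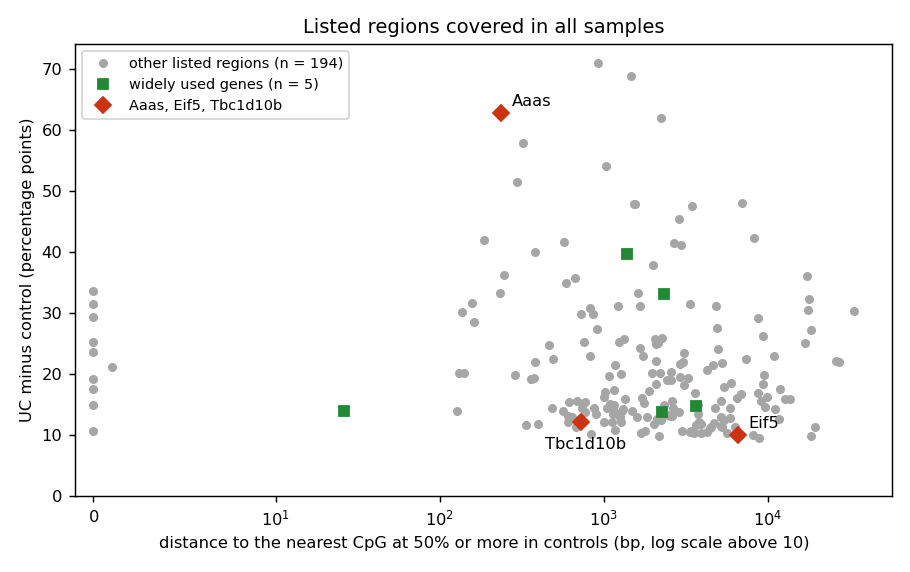
Difference between the UC and control means (percentage points) of the 202 listed regions covered in all samples against the distance (bp, log scale above 10) to the nearest CpG at 50% or more in controls. Red diamonds are the 3 genes, green squares the 5 covered regions of other widely used genes; Aaas lies at 236 bp with 62.8 points, Tbc1d10b at 726 bp with 12.1 points and Eif5 at 6562 bp with 9.97 points.

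Over the covered listed regions the median distance to a CpG at 50% or more in controls was 2023 bp, and 30.2% (61 regions) had one within 1000 bp. Aaas and Tbc1d10b were among these 61, with 19 and 45 regions nearer. Eif5 was farther than most, with 171 regions nearer and 30 farther. Of the 5 covered regions of widely used genes, 1 (Polg, at 26 bp) had such a CpG within 1000 bp.

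At Aaas and Tbc1d10b, UC 1 resembled UC 2 most, and UC 4 resembled UC 5 most. The CpGs compared ran from the first to the last raised CpG of each window, so the differences between UC and control set their bounds. At Aaas these were 23 CpGs, from 656 bp before to 67 bp after the start. Pearson's r there was 0.981 between UC 1 and UC 2 and 0.950 between UC 4 and UC 5, and 0.673 to 0.768 for the other pairs. Over the 54 CpGs of Tbc1d10b, r was 0.869 and 0.850 for these pairs and 0.562 to 0.798 for the others. At Eif5 (28 CpGs) this held for UC 1 and UC 4, whereas UC 2 and UC 5 each had their highest r with UC 3. UC 3 with UC 5 had the highest r of all, 0.833. UC 1 with UC 2 had 0.655, UC 4 with UC 5 had 0.753, and the remaining pairs had 0.370 to 0.703. Neighbouring CpGs share reads, and CpGs of one library share its depth, so these values describe the libraries and have no test. The counts do not link CpGs of one read, so a level of 40% in UC 3 at Aaas cannot be told apart as fewer methylated cells or fewer methylated CpGs in each cell.

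Read depth was not used to choose the genes and could be tested. The Aaas window took 35.6 ± 5.01 calls per 1000000 in controls (SD, n = 3) and 36.5 ± 5.49 in UCs (SD, n = 5), with an exact two-sided permutation p of 0.821. The Eif5 window took 70.7 ± 11.7 and 69.4 ± 2.79 (exact permutation p = 0.786), and the Tbc1d10b window 84.5 ± 17.9 and 78.4 ± 11.4 (exact permutation p = 0.536). Adjusted over the 3 windows each p was 0.821. The smallest p that the 56 divisions allow is 0.0357, which for 1 window alone would be 0.107 after adjustment. In the 2 Mb around Tbc1d10b, UC 1 and UC 2 had 1944 and 1941 calls per 1000000, against 2323 to 2439 in controls and 2236 to 2306 in UC 3 to UC 5. UC 1 and UC 2 also had the highest methylation of this gene, and the part of the lower depth in it was not tested.

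Promoters of relatives of the 3 genes, which were taken by gene name and not selected on this contrast, were compared as well. The initiation factor group holds genes named Eif, which include Eif2ak1 to Eif2ak4 and Eif4enif1, not themselves initiation factors. From 250 bp before to 50 bp after the start, 73 promoters of nuclear pore genes, translation initiation factor genes and Tbc1d genes could be placed and had enough calls, and 70 of them differed by less than 1 point between groups. Of 12 nuclear pore promoters 0 were called higher, of 40 initiation factor promoters 1, and of 21 Tbc1d promoters 0, and 0 were called lower in each family, by the quasi-binomial model used for the tiles. The 1 call is 1.37% of the 73, against 4.66% of the shorter 200-bp tiles that were low in every control. At an unadjusted p under 0.05 there were 0, 2 and 2 promoters in these families. The highest control level in any of the 73 was 2.68%.

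The one call was Eif4e1b, a germline relative of the cap-binding protein eIF4E. It was at 1.03%, 1.16% and 1.24% in the controls and at 22.5%, 20.5%, 4.89%, 17.8% and 16.5% in the UCs, with adjusted p = 0.00188 by the quasi-binomial model moderated with limma. Leaving out 1 sample at a time moved it from 4.2e-06 (without UC 3) to 0.0209, and it was 0.00635 without UC 4 and UC 5. Each UC was above each control, and UC 3 was again the lowest. The promoters of Eif1ax and Tbc1d25, both on chromosome X, were raised in UC 4 and UC 5 alone. Eif1ax, a factor in start codon selection, stood at 24.6% and 17.1% in these libraries and at 0% to 0.862% in the other 6 (adjusted p = 0.0511 by the same model). Tbc1d25 stood at 24.3% and 14.2%, and at 0% to 0.602% elsewhere (adjusted p = 0.0955). Neither was called, and both values move with the share of chromosome X calls given above, whose part in them was not tested. In the same window the 3 genes differed by 14.6 points (Aaas), 0.109 points (Eif5) and 4.12 points (Tbc1d10b). For Eif5 the 300 bases around the start thus held almost none of its gain. The listed Aaas region, 288 to 364 bp before the start, lies wholly outside this window, so the 14.6 points come from other CpGs. The family genes were compared in this window alone, so gains placed as in the listed Aaas region or at Eif5 would be missed in them. The Aaas value sums 13 CpGs, some of which were not listed in all samples, so its samples are not compared at the same CpGs throughout.

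**Figure D4:**
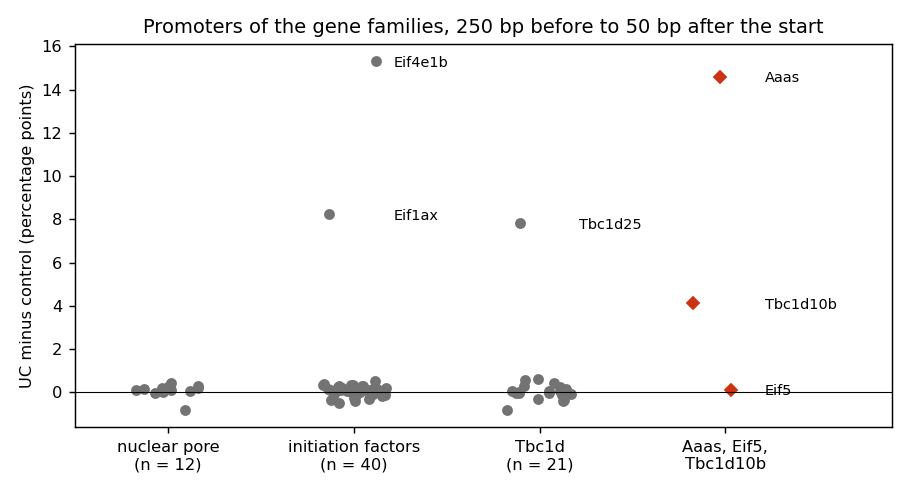
Difference between the UC and control means (percentage points) of promoters, from 250 bp before to 50 bp after the start, for 3 gene families and for the 3 genes themselves. The listed Aaas region lies outside this window. Grey points are single promoters and red diamonds are Aaas, Eif5 and Tbc1d10b; 70 of the 73 family promoters lie within 1 point of 0, and Eif4e1b, Eif1ax and Tbc1d25 lie above.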

How the data were processed

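RRBS libraries of 3 control bladders and 5 UCs were analysed. The authors cut DNA with TaqI and MspI, mapped single-end reads on rn6 with RRBSMAP, discarded reads mapping to more than 1 place and barcode duplicates, compared groups with DMAP and annotated regions with HOMER. Per CpG, the deposited files hold 2 whole-read counts, of reads with C and of all reads with C or T, and an effective count, an expected count corrected by the opposite strand. Every listed CpG had at least 3 reads. Depth was 51434938 to 73836223 calls per sample, with 14 to 18 reads on the median CpG.

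Region, tile and promoter levels were C calls divided by C and T calls, summed over the CpGs listed in each sample. Levels of CpGs, bins, stretches and flanks used CpGs listed in all 8 samples. Regions were read from the study's list of 246. The 3 genes, the gene lists and the tests were chosen with earlier results of these data known. The named CpGs of each gene were those with the largest and smallest difference inside the region, the largest outside it, and the nearest CpGs at 50% or more in controls; from each gene list the largest or smallest was named. Other CpGs, and Eif1ax and Tbc1d25, were named after their values were seen. Tiles of 200 bp with at least 3 CpGs of 3 reads in every sample were tested with a quasi-binomial model (R 4.3.3, limma 3.58.1 for moderation), with calls at adjusted p under 0.05 and a difference over 10 points. On simulated counts for this comparison over 258144 tiles, 70.5% of 20-point and 89% of 40-point changes were recovered. With no change added, 6.3% of simulated tiles still reached p under 0.05 before adjustment in the quasi-binomial model, and 6 were called. These shares hold for the spread set in the simulation, which was not compared with that of the UCs. They are therefore no estimate of the recovery in the real samples. Promoters were placed in rn6 by the spacing of at least 8 CpGs, since no rn6 annotation was used here. Exact permutation tests used scipy 1.17.1. Family promoters were adjusted together with the tiles. Alternatives changed the limits, the reads required, the denominator, the flank and the samples used.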

Additional observations from a re-analysis of the deposited data

Results flagged for a closer look

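Of 12 sets of 5 UC values (the levels of the 3 regions and their 6 flanks, and the calls per 1000000 of the 3 windows), 1 had a sample far from the rest. In the 8 CpGs upstream of the Aaas region UC 3 was at 39.6%, while the other 4 UCs lay between 71.2% and 74.8% and the controls between 11.6% and 16.9%. Chance marks about 1 in 20 such sets. The groups of 3 controls were too small for this check.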

How the results depend on the processing

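The differences of the 3 regions moved by less than 1 SD of the UCs under all alternatives run, the omission of UC 4 and UC 5 included. Other values moved with the limits. The nearest CpG methylated in controls was 3859 bp from Aaas when 10 reads were required and 4300 bp from Tbc1d10b at a limit of 70%. With differences over 20 points, 3 CpGs were gained at Eif5 and 5 at Tbc1d10b. Gained CpGs over 300 bp from a control-methylated CpG numbered 3 at Aaas, and 6 at Tbc1d10b lay over 200 bp from CpGs at 30% or more in controls (both limits chosen after seeing the data). Leaving out 1 sample at a time gave 5 to 11 gained CpGs at Eif5 and 11 to 36 at Tbc1d10b, the highest without UC 3. The small difference of the Eif5 upstream flank (-0.151 points) became 0.0678 with 10 reads, 0.00619 without UC 4 and UC 5 (an omission chosen after seeing the data), and ran from -0.373 to 0.187 without 1 sample. The difference in calls per 1000000 ran from -1.29 to 3.65 at Aaas, -5.51 to 5.38 at Eif5 and -16.4 to 0.183 at Tbc1d10b when 1 sample was left out.

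Tiles called higher and lower numbered 25413 and 19368. They were 15166 and 12375 without moderation of the dispersion, 41347 and 39578 with 10 calls in place of 3 CpGs, 15071 and 10183 with 10 reads per CpG, and 14748 and 12478 in the design with the alike pairs, UC 1/UC 2 and UC 4/UC 5, as 1 sample each. With differences over 20 points 15810 were higher. Without 1 sample the counts ran from 13775 (without control 3) to 34274 (without UC 3) and from 11693 to 24342. Family promoters called higher numbered 1 to 2 without 1 sample (2 without UC 1, UC 2 or UC 3), a step added after seeing the data. With a replicate block on M values (log2 ratios of C to T calls) the counts were 9449 and 8604, against 19188 and 15675 without it. The samples share only a number: deviations of same-numbered samples correlated at -0.013, -0.004 and 0.016. The cause of these changes was not tested. At these depths a level at 1 CpG rests on few reads, so single CpGs are less precise than regions.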
